A study of Arabidopsis thaliana with 12 samples.

Results

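The 4 genes described here encode enzymes that carry carbon from stored lipid or from organic and amino acids towards sugar in Arabidopsis thaliana. They are PCK1 (AT4G37870), PPDK (AT4G15530), ICL (AT3G21720) and MLS (AT5G03860), taken by locus from a table of 38288 genes. All 4 loci were found in the table, and 3 passed the filter on low counts, while ICL did not. Leaves of 2 genotypes were compared: the wild type Col, and chlorella-1, which the labels describe as a knockout of CHLORELLA, a gene for a long noncoding RNA directed to the chloroplast. Leaves were taken at 14 d and at 26 d, called young and old leaves from here on, with 3 libraries for each combination of genotype and age, 12 in all. Nothing beyond the chlorella-1 allele separates the genotypes in the labels, no group carries a treatment, and the labels do not say how many plants a library pools, how the allele was made or whether more than 1 mutant line was used.

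In the glyoxylate cycle, acetyl-CoA from fatty acid breakdown is built into 4-carbon acids without loss of carbon dioxide. ICL (isocitrate lyase) splits isocitrate into glyoxylate and succinate, and MLS (malate synthase) joins glyoxylate with acetyl-CoA to give malate. The acids leave the peroxisome, and PCK1, a cytosolic phosphoenolpyruvate carboxykinase, turns oxaloacetate into phosphoenolpyruvate (PEP), the entry point of gluconeogenesis. PPDK (pyruvate, orthophosphate dikinase) makes PEP from pyruvate and so opens a second entry, for carbon from amino acids such as alanine. The set is best known from oil-rich seedlings before they turn green, and PPDK is also known from ageing leaves that export nitrogen.

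All 4 genes lie on the minus strand, and positions are given in build TAIR10.1. PCK1 spans chr4:17802690-17806705 with 1 annotated transcript, and ICL spans chr3:7652487-7656053 with 1. MLS spans chr5:1032099-1034973 with 2 transcripts, and its 3′ end lies 66 bases from AT5G03858 on the same strand. PPDK spans chr4:8864615-8870979 with 7 transcripts, of which 1 begins at an inner start, inside an intron of the longer forms. The longer transcripts are known to encode the chloroplast form of the enzyme and the shorter transcript the cytosolic form. Counts per gene cannot separate these forms. PPDK also overlaps AT4G15520 on the other strand, and since the strand setting of the counting is not given in the sources used here, reads in the overlap cannot be assigned to a strand.

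The 250 bases upstream of the outermost start of each gene are shown because PCK1 and PPDK both rose with age in chlorella-1. ICL and MLS had no counts in chlorella-1 at 26 d. Each is written 5′ to 3′ on the gene's own strand, read from the RefSeq TAIR10.1 genome. Capitals mark matches on either strand to ACGTG (the core of many abscisic acid response elements), TTGAC (the core bound by WRKY factors) or TATCCA (known from sugar-responsive promoters of rice).
PCK1, chr4:17806706-17806955: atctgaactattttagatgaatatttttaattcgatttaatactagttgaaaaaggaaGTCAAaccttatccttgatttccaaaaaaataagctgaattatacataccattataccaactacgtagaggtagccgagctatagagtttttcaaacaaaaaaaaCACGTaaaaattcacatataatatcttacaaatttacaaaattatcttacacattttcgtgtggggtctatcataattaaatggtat
PPDK, chr4:8870980-8871229: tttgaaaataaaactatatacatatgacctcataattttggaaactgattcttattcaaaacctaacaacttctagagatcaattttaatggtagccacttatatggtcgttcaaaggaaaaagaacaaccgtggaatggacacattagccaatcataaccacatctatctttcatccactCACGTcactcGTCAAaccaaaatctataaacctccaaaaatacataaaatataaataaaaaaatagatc
ICL, chr3:7656054-7656303: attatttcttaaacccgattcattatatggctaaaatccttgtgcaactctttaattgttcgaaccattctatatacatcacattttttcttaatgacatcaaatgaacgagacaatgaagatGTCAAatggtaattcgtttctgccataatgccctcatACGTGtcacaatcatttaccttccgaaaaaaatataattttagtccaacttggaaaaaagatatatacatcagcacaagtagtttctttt
MLS, chr5:1034974-1035223: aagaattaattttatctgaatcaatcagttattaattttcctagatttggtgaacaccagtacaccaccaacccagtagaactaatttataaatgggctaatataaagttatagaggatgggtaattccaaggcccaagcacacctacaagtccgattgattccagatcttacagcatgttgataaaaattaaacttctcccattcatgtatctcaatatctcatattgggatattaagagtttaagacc
The G-box CACGTG, which contains ACGTG, occurred in none of the 4 windows and in 6.49% of 27442 windows of the same length upstream of annotated genes. ACGTG occurred once in the windows of PCK1, PPDK and ICL, against 22.9% of all windows that hold it. TTGAC occurred once in every window except that of MLS, against 44.9% of all windows. TATCCA occurred in none of the 4 windows and in 13.6% of all windows. In base composition the windows had a GC content of 26.8% for PCK1, 30.4% for PPDK, 30.8% for ICL and 33.6% for MLS, around a median of 31.2% over all windows. No motif searched here was present in the PCK1 and PPDK windows and absent from that of ICL. Windows upstream of the inner starts of PPDK (chr4:8869319) and MLS (chr5:1034686) are not given here.

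The libraries held 45120547 to 70452171 read counts. Nuclear genes took 26.9% to 34.0% of them in 9 libraries and 38.8% to 49.4% in the 3 chlorella-1 libraries at 26 d. Replicates of that group also agreed least across genes, with Spearman's rho of 0.929 to 0.971. The table and the annotation name no CHLORELLA gene, so the genotypes are as labelled. The leaf mesophyll list of 6 genes, among them RBCS1A and LHCB1.3, summed to 19832 to 24256 CPM in young leaves, 5898 to 9958 CPM in old Col leaves and 945 to 1138 CPM in old chlorella-1 leaves. The labelled tissue thus showed its defining transcripts in every library. The 4 senescence markers SAG12, NYE1, ORE1 and NAP ran the other way, with sums of 9.60 to 17.1 CPM in young leaves, 187 to 345 CPM in old Col leaves and 3519 to 6458 CPM in old chlorella-1 leaves. CPM are normalised read counts relative to library size after TMM scaling, as edgeR computes them.

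**Figure D1:**
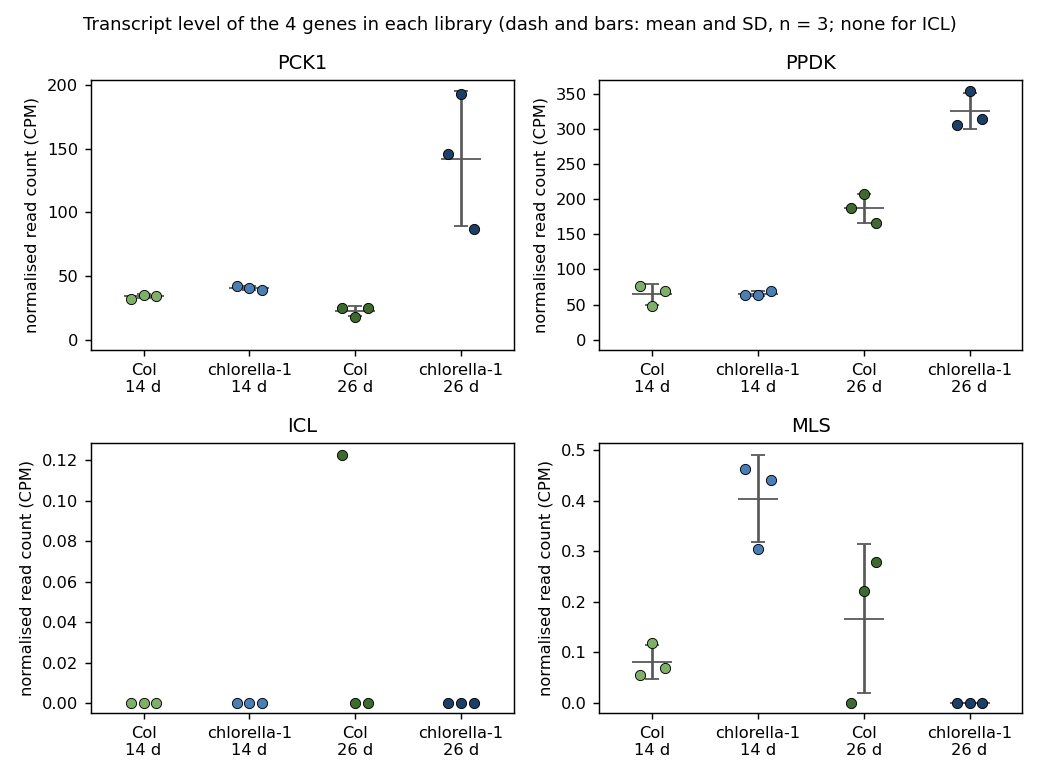
Normalised read counts (CPM) of PCK1, PPDK, ICL and MLS in each of the 12 libraries, with the y axes on different linear scales; dashes and bars are the mean and SD of 3 libraries, left out for ICL. PCK1 and PPDK were highest in the 3 chlorella-1 libraries at 26 d, where ICL and MLS had 0 counts.

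PCK1 and PPDK, the enzymes that make PEP, were both higher in chlorella-1 than in Col at 26 d, whereas the glyoxylate cycle genes were at or near 0 in every library. PCK1 was 6.34-fold and PPDK 1.74-fold higher in the mutant at 26 d. At 14 d neither differed past the threshold. With age in Col, PPDK rose, and PCK1 did not pass the test. In bulk leaf RNA, more cells of a type and more RNA per cell cannot be told apart.

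In young leaves PCK1 was measured at 32.3, 35.3 and 34.3 CPM for Col and at 42.3, 40.8 and 39.3 CPM for chlorella-1. Old leaves gave 24.8, 17.7 and 24.8 CPM for Col and 146, 193 and 87.2 CPM for chlorella-1. The old mutant leaves stood apart from all others, and their lowest library was still above every library of the other 3 groups. They were also the most variable, with a mean of 142 ± 53.1 CPM (SD, n = 3) against 22.4 ± 4.10 CPM (SD, n = 3) in Col of the same age. The log2 fold change at 26 d was 2.66 ± 0.26 (SE), with an adjusted p of 6.39e-06 in edgeR's quasi-likelihood test. Without the third chlorella-1 library at 26 d, which has the largest nuclear share, it was 3.001 (adjusted p = 7.34e-07, edgeR), and without the second, which has the highest PCK1 level, 2.38 (adjusted p = 3.87e-06, edgeR).

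At 14 d the PCK1 level was 34.0 ± 1.51 CPM (SD, n = 3) in Col and 40.8 ± 1.52 CPM (SD, n = 3) in chlorella-1. The groups did not overlap, but the log2 fold change of 0.26 ± 0.24 (SE) did not pass the test (adjusted p = 0.871, edgeR). With age PCK1 rose in chlorella-1, by 1.80 ± 0.25 (SE) on the log2 scale (adjusted p = 5.18e-05, edgeR). In Col it was at a log2 fold change of -0.60 ± 0.24 (SE), with groups that did not overlap and an adjusted p of 0.0706 (edgeR). That call depended on the fit, since a model of the Col libraries alone gave -0.55 with an adjusted p of 0.0129 (edgeR). The age changes of the genotypes differed by 2.40 ± 0.35 (SE) on the log2 scale (adjusted p = 0.00033, edgeR). In order, PCK1 was lowest in Col at 26 d, then Col at 14 d, chlorella-1 at 14 d and chlorella-1 at 26 d, and only the last step passed the test between neighbours.

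In young leaves PPDK was measured at 76.7, 48.0 and 69.4 CPM for Col and at 63.7, 63.8 and 69.6 CPM for chlorella-1. Old leaves reached 188, 208 and 166 CPM for Col and 306, 355 and 315 CPM for chlorella-1. The young groups overlapped, while both old groups lay above all young libraries and apart from each other. Their means were 187 ± 20.8 CPM (SD, n = 3) in Col and 325 ± 25.9 CPM (SD, n = 3) in chlorella-1 at 26 d, against 64.7 ± 14.9 and 65.7 ± 3.36 CPM (SD, n = 3 each) at 14 d.

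The PPDK log2 fold change between genotypes was 0.02 ± 0.18 (SE) at 14 d (adjusted p = 1, edgeR) and 0.80 ± 0.18 (SE) at 26 d (adjusted p = 0.00246, edgeR). Age raised PPDK in both genotypes, by 1.53 ± 0.18 (SE) on the log2 scale in Col (adjusted p = 9.97e-05, edgeR) and by 2.31 ± 0.19 (SE) in chlorella-1 (adjusted p = 7.31e-07, edgeR). The age changes differed by 0.77 ± 0.25 (SE) on the log2 scale (adjusted p = 0.0292, edgeR). This last call was lost when any 1 of 7 libraries was left out, with log2 differences of 0.62 to 0.81 and adjusted p from 0.0504 to 0.0840 (edgeR): Col at 14 d replicates 1 and 3, Col at 26 d replicates 1 and 3, and chlorella-1 at 14 d replicates 1, 2 and 3. The genotype call at 26 d was lost in a fit of the 26 d libraries alone without Col replicate 1 (0.78, adjusted p = 0.0511) or replicate 3 (0.71, adjusted p = 0.0727).

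**Figure D2:**
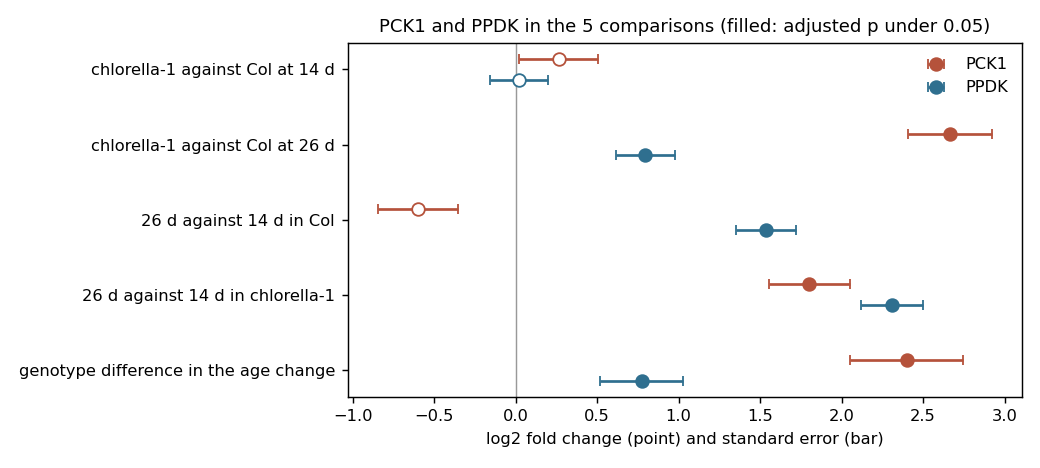
Log2 fold changes of PCK1 and PPDK (points) with their standard errors (bars) in the 5 edgeR comparisons; filled points have an adjusted p under 0.05. PCK1 stands at 2.66 and PPDK at 0.80 between genotypes at 26 d, and with age in Col they lie on either side of 0, at -0.60 and 1.53.

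MLS was counted 4, 8 and 4 times in the young Col libraries and 26, 19 and 24 times in those of young chlorella-1 leaves. Old Col leaves had 0, 13 and 17 counts, and each old chlorella-1 library had 0. The young mutant leaves were thus highest, at 0.404 ± 0.0861 CPM (SD, n = 3), and did not overlap with Col of the same age, at 0.0811 ± 0.0333 CPM (SD, n = 3). The log2 fold change at 14 d was 2.28 ± 0.93 (SE) with an adjusted p of 0.487 in the fit of all 12 libraries. In a fit of the 14 d libraries alone it was the same size, 2.28, with an adjusted p of 0.00778 (edgeR). MLS passed the filter on low counts in that fit only through the young mutant libraries, so this value is a description.

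At 26 d MLS was at least 9.07-fold lower in chlorella-1 than in Col, taking 3 counts over the 3 mutant libraries as the floor (adjusted p = 0.0106, edgeR). The groups overlapped, because Col replicate 1 also had 0 counts. With limma voom the adjusted p was 0.0684. With age MLS went from 69 counts over the young chlorella-1 libraries to 0 over the old ones, at least 22.4-fold lower, and was at a log2 fold change of 1.01 ± 0.96 (SE) in Col (adjusted p = 0.437, edgeR). A fit of the 26 d libraries alone left MLS under the filter on low counts. Its level was highest in the 14 d mutant group, which carries it through that filter, so the comparisons with that group had to show a difference and are given as a description. Counts this low also have an unusual pattern in the table, looked at over nuclear protein-coding genes in all libraries. A count of 1 occurs 1808 times there, a count of 2 occurs 4551 times and a count of 3 occurs 2980 times. Even counts were thus favoured, the reason was not tested, and counting error may be larger than these counts imply.

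ICL had 0 counts in 11 of 12 libraries and 8 counts, or 0.122 CPM, in Col at 26 d replicate 1. A count of 0 allows up to 0.0413 to 0.0686 CPM in a library, taking 3 counts as the floor. The library that held the ICL counts was the Col library without MLS counts. No library therefore had counts of both glyoxylate cycle enzymes. Under no filter the log2 fold change of ICL at 26 d was -4.37 ± 2.52 (SE) with an adjusted p of 0.211 (edgeR). Expression of ICL was not detectable at this depth in 3 of the 4 groups.

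Read against the background, neither PCK1 nor PPDK passed at 14 d, where 0.162% of 20398 genes did. PCK1 and PPDK passed at 26 d, where 63.3% of genes passed, 6429 higher and 6492 lower. PPDK alone passed for age in Col, against 39.4% of genes. Both passed for age in chlorella-1, against 71.2%, and both for the difference in age change, against 42.2%. MLS is left out of these counts, because it passed the filter on low counts only through the young mutant libraries. A call at 26 d was thus common to most genes and is not particular to these. By size, the PCK1 log2 fold change lay above 90.4% of tested genes at 26 d and the PPDK value above 71.1%. For the 33 calls at 14 d, 1851 genes had an unadjusted p under 0.05 and DESeq2 called 423.

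Per kilobase of exon, the scale on which genes can be compared, PPDK stood at 88.7 ± 7.06 CPM per kb (SD, n = 3) and PCK1 at 55.0 ± 20.6 CPM per kb (SD, n = 3) in old chlorella-1 leaves. In old Col leaves the values were 51.1 ± 5.65 for PPDK and 8.68 ± 1.59 CPM per kb for PCK1 (SD, n = 3 each). PPDK was thus above 97.7% of tested genes in old Col leaves and PCK1 above 83.8%, while in old mutant leaves they were above 97.5% and 95.9%. MLS did not exceed a mean of 0.196 CPM per kb in any group.

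The balance of the PEP-forming enzymes stood apart in old Col leaves. The ratio of PPDK to PCK1 per kilobase was 1.67, 0.959 and 1.42 in young Col leaves and 1.06, 1.10 and 1.25 in young mutant leaves. Old leaves gave 5.34, 8.28 and 4.73 for Col and 1.48, 1.29 and 2.54 for chlorella-1. Old Col leaves did not overlap with any other group. The mean log2 ratio was 1.81 lower in chlorella-1 than in Col at 26 d, and it was 2.17 higher at 26 d than at 14 d in Col and 0.58 higher in chlorella-1. In a two-sided exact permutation test each of these 3 differences had a p of 0.1, the lowest value that 2 groups of 3 libraries allow, and at 14 d the difference of -0.22 had a p of 0.5. With 4 such comparisons, none could pass a threshold of 0.05. Without the third old chlorella-1 library the difference of 0.58 was 0.29, and without the first young Col library the difference of -0.22 was -0.04.

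**Figure D3:**
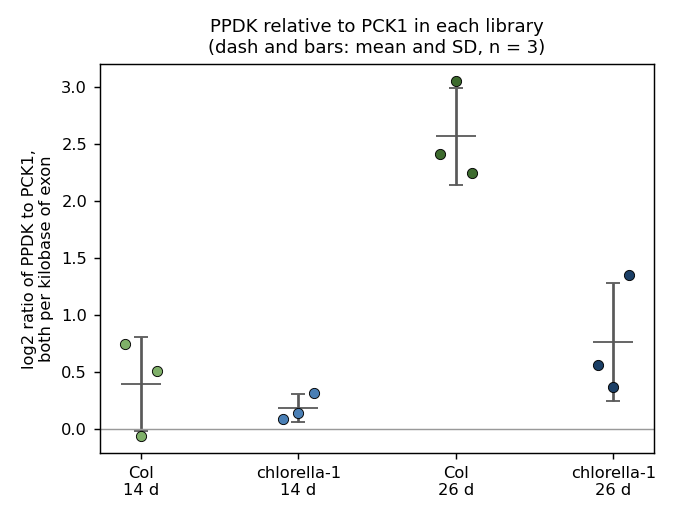
Log2 ratio of PPDK to PCK1, both as CPM per kilobase of exon, in each of the 12 libraries; dashes and bars are the mean and SD of 3 libraries. Old Col leaves stand highest, between ratios of 4.73 and 8.28, and old chlorella-1 leaves reach at most 2.54.

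The proteins that regulate PPDK, and the second PEP carboxykinase gene, did not move as 1 group. RP2, which encodes the cytosolic regulatory protein of PPDK, rose from 11.1 ± 0.605 CPM in Col to 21.3 ± 2.41 CPM in chlorella-1 at 26 d (SD, n = 3 each), a log2 fold change of 0.94 ± 0.13 (SE; adjusted p = 6.70e-05, edgeR). RP1, which encodes the chloroplast regulatory protein, fell from 30.0 ± 3.93 to 17.7 ± 1.94 CPM (SD, n = 3 each), a log2 fold change of -0.76 ± 0.16 (SE; adjusted p = 0.00126, edgeR). The regulators of the cytosolic and chloroplast forms therefore changed in opposite directions. RP2 overlaps AT3G01202 on the other strand, so its value carries the same limit as that of PPDK. PCK2 had 0 counts in all libraries at 14 d, 0.196 ± 0.205 CPM in Col and 1.15 ± 1.76 CPM in chlorella-1 at 26 d (SD, n = 3 each), with an adjusted p of 0.174 (edgeR). Its highest library was at 3.19 CPM and its lowest mutant library at 0.106 CPM, so the mutant libraries differed among themselves.

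The steps around the 4 genes were counted in 7 lists. At 14 d, where 0.162% of all genes passed the test, no gene of any of these lists did. The counts that follow are for chlorella-1 against Col at 26 d in edgeR, with levels as mean ± SD (n = 3). There 63.3% of all genes passed, 6429 higher and 6492 lower, at a median log2 fold change of -0.11. With DESeq2 size factors that median moved to 0.02, and PCK1 and PPDK stood at 2.84 and 0.95.

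Peroxisomal beta-oxidation, which supplies acetyl-CoA to the glyoxylate cycle, had 11 of 12 genes higher and 0 lower, at a median log2 fold change of 1.61. ACX2, a long-chain acyl-CoA oxidase, rose from 42.2 ± 3.52 to 335 ± 134 CPM, a log2 fold change of 2.99 ± 0.26 (SE; adjusted p = 2.83e-06). ACX3, the medium-chain oxidase, rose by 2.46 and ACX1 by 2.48 on the log2 scale. KAT5 was the gene that did not pass, at -0.77 (adjusted p = 0.0534). The glyoxylate cycle steps other than ICL and MLS were divided, with 3 of 7 tested genes higher, 2 lower and 2 not past the test. The peroxisomal citrate synthases CSY2 and CSY3 rose by 2.28 ± 0.19 and 2.44 ± 0.25 (SE), to 177 ± 48.4 and 466 ± 188 CPM. PMDH2, a peroxisomal malate dehydrogenase, fell from 294 ± 65.1 to 47.6 ± 31.4 CPM, a log2 fold change of -2.62 ± 0.47 (SE; adjusted p = 0.000554). Transcripts of these citrate synthases were thus counted in leaves in which ICL and MLS had 0 counts.

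Carriers and acetate activation had 4 of 8 genes higher and 3 lower. The adenine nucleotide carrier PNC2 and the acetate-activating enzyme ACN1, both peroxisomal, rose by 2.80 ± 0.22 and 2.91 ± 0.25 (SE) on the log2 scale. PXN, the peroxisomal NAD carrier, rose by 2.01 ± 0.18 (SE). Among the lower genes were PPT1 and PPT2, which carry PEP across the chloroplast envelope, at -1.22 and -2.55. PPT1, PPT2, KAT5, CFBP, PPC1, PPC4, FBA5, FBA7 and NADP-ME1 were chosen for mention after their values were seen.

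Of the cytosolic steps from PEP to hexose phosphate, 2 of 15 genes were higher, 5 lower and 8 not past the test, at a median log2 fold change of -0.13, close to the -0.11 of all genes and so without a direction that holds across scalings. The cytosolic phosphoglucose isomerase rose by 1.72 ± 0.19 (SE), while GAPC2, a glyceraldehyde-3-phosphate dehydrogenase, and CTIMC, the triose phosphate isomerase, fell by 1.50 and 0.91 on the log2 scale. CFBP, the cytosolic fructose-1,6-bisphosphatase that is specific to the sugar-making direction, fell from 50.1 ± 16.4 to 29.0 ± 6.73 CPM (adjusted p = 0.0145). Of the phosphofructokinases, 3 of 11 were higher and 5 lower. The subunit genes PFPA1 and PFPB1 of the pyrophosphate-dependent enzyme fell by 1.93 ± 0.16 and 2.04 ± 0.20 (SE), and PFK6 fell by 1.62 ± 0.31 (SE).

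PEP carboxylases and malic enzymes, which consume PEP or make pyruvate, had 3 of 11 tested genes higher and 3 lower. Of the higher genes, PPC4 and NADP-ME1 had 2 and 23 counts in Col at 26 d. They passed the filter on low counts only through the old mutant libraries and so had to be higher there. PPCK1, the kinase that activates PEP carboxylase, rose by 2.89 ± 0.45 (SE), to 199 ± 151 CPM. PPC2, a leaf PEP carboxylase, fell by 1.35 ± 0.23 (SE), PPC1 by 0.66 and the mitochondrial NAD-ME1 by 1.11 ± 0.23 (SE) on the log2 scale. Of the enzymes that release pyruvate or oxoglutarate from amino acids, 4 of 7 were higher and 3 lower. GDH2, a glutamate dehydrogenase subunit, rose from 51.1 ± 17.1 to 587 ± 59.2 CPM, and GDH1, the other main subunit, fell from 28.0 ± 3.80 to 4.01 ± 0.487 CPM. Their log2 fold changes were 3.52 ± 0.24 and -2.80 ± 0.17 (SE). ALAAT2, an alanine aminotransferase that makes the substrate of PPDK, rose by 1.76 ± 0.13 (SE; adjusted p = 9.57e-07). Among the genes named from these lists, CSY3, PPT1, ACN1, KAT5, PFK6, PPCK1 and GDH1 overlap a gene on the other strand, and PFPA1, ALAAT2, FBA5 and FBA7 a gene on the same strand, so the reads there could be shared.

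**Figure D4:**
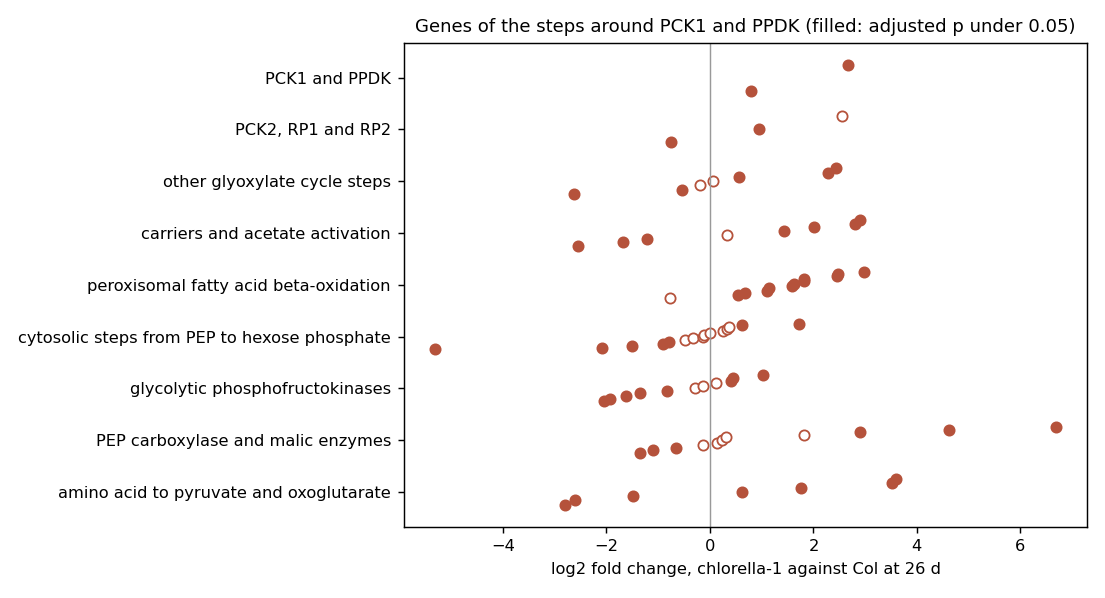
Log2 fold change between chlorella-1 and Col at 26 d of each tested gene in the lists around PCK1 and PPDK, 1 row per list; filled points have an adjusted p under 0.05 in edgeR. All filled beta-oxidation points lie above 0, and the points farthest out are FBA5 at -5.32, which overlaps its neighbour FBA7 on the same strand, and NADP-ME1 at 6.70, which had 23 counts in all of Col at 26 d.

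Age alone moved some of these lists in Col. Beta-oxidation had 9 of 12 genes higher and 0 lower at 26 d than at 14 d. Of all 20398 tested genes, 3935 were higher and 4112 lower. The cytosolic steps had 1 of 15 higher and 10 lower. The genotypes differed in their age change for 10 of 12 beta-oxidation genes, all toward higher levels in chlorella-1. Over all tested genes, 4323 differed in that direction and 4283 in the other.

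Markers of other cell types also moved with the old mutant leaves, at an age where 63.3% of all genes passed between genotypes. Seed markers, of interest because ICL and MLS are known from seedlings, were at 0 in chlorella-1 at 26 d for 11 of 12 genes, among them the storage protein genes CRA1 and CRU3 and the oleosin OLEO1, with EM6 alone giving sums of 0.650 to 4.73 CPM. Pollen markers summed to 40.8 to 86.9 CPM there against 18.5 to 18.9 CPM in Col at 26 d. Nearly all of the Col sum was TUA1, at a mean of 18.6 CPM in old Col and 25.8 CPM in old mutant leaves. VGD1 went from 0.0567 to 23.8 CPM. All 9 tested genes were higher, but those other than TUA1 had at most 10 counts in any other group. They passed the filter on low counts only through the old mutant libraries, so they had to be higher there. Of the gamete genes, HAP2 and GEX2 were at 0 there, and MGH3, at 0 counts in the other 3 groups, had 19 counts, at 0.0457 to 0.190 CPM. Vascular markers summed to 290 to 423 CPM against 178 to 219 CPM, with 3 of 5 genes higher and 0 lower. Of all 20398 tested genes, 6429 were higher and 6492 lower. Floral organ markers summed to 3.80 to 5.64 CPM against 7.47 to 10.2 CPM, with AP1 at 0. Of the 5 tested, 0 were higher and 1 lower, SEP4, which fell from 7.35 to 2.43 CPM, while PI stood at 0.609 CPM in old Col and 1.78 CPM in old mutant leaves (adjusted p = 0.0776, edgeR). Trichome and epidermis markers summed to 5.22 to 12.6 against 18.5 to 32.5 CPM, with 3 of 4 tested genes lower and GL2 higher, at a log2 fold change of 2.21. The part of these cell types, and of the senescence and nuclear share values above, in the PCK1 and PPDK results was not tested.

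Profiles most like those of the members were ranked by the root mean square difference of centred log2 CPM over the 12 libraries. Only genes that passed the filter on low counts and carry a symbol were ranked, so a gene without a symbol may lie closer. PCK1 was closest to HA5, a plasma membrane proton pump gene (0.189), MPK12, a guard cell kinase gene (0.194), PEPR1, a peptide receptor gene (0.209), ZFN2 (0.243) and MEE55 (0.252). PPDK was closest to CYP89A5 (0.216), NBR1, a selective autophagy receptor gene (0.234), SDRB (0.235), PUB24 (0.245) and TDT, the vacuolar malate carrier gene (0.246). Between PPDK and PCK1 themselves the difference was 0.996, so each had nearer profiles than the other. For MLS the nearest genes were farther away, with BEE1 at 0.653, BFT at 0.655, AFO at 0.740, MIR169n at 0.755 and CYCD4;2 at 0.776. TDT, picked for its closeness to PPDK in these same libraries, had means of 26.3, 28.1, 81.1 and 141 CPM in Col and chlorella-1 at 14 d and then at 26 d. HA5 was at 7.31, 7.63, 5.59 and 30.5 CPM in the same order of groups.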

How the data were processed

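Total RNA of leaves was sequenced in 12 libraries with a stranded kit that removes plant ribosomal RNA, per the labels' protocols. The deposited table holds read counts per gene, used as the authors deposited them: whole numbers with different totals in each library, per the file headers. STAR, HISAT2, HTSeq, StringTie and DESeq2 with build TAIR10 are listed in the submitters' processing notes, and their versions and roles are not given in the sources used here. Another 12 columns, the deposited FPKM values, were not used. Of 38338 rows, 50 name no gene and were left out, with 0.0771% to 0.216% of a library's counts. Libraries held 45120547 to 70452171 counts, and floors of 3 counts cover counting error only.

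From the counts, edgeR 4.0.16 in R 4.3.3 kept 20398 genes by filterByExpr, scaled libraries by TMM, and fitted 1 quasi-likelihood model with a term per group. All tests were two-sided, p-values were adjusted over all tested genes by the Benjamini-Hochberg method, and the threshold was 0.05. Since the labels do not say that libraries come from separate plants, p-values measure the spread between these libraries only, which may be technical. Same-numbered libraries were checked for pairing: their deviations correlated at -0.131 to 0.146, so the numbers were not taken as pairs. Sequences, positions and exon lengths came from RefSeq TAIR10.1.

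The 4 genes and all lists were chosen with earlier results of these data known. Named besides them were the 5 nearest profiles per tested member (prior count 2), PCK2, RP1 and RP2, and up to 3 genes per list with the smallest p at 26 d. Alternatives were other scalings, filters and feature sets, limma voom 3.58.1, DESeq2 1.42.0, fits of only the groups compared, a replicate block, and each library left out.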

Additional observations from a re-analysis of the deposited data

Results flagged for a closer look

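For PCK1 and PPDK the age change differed between the genotypes, by the test of that difference in edgeR. PCK1 differed by 2.40 on the log2 scale (adjusted p = 0.00033), with a rise in chlorella-1 and a log2 fold change of -0.60 in Col that did not pass the test. PPDK differed by 0.77 on the log2 scale (adjusted p = 0.0292), with a rise in both genotypes that was larger in chlorella-1. MLS had a fitted difference of -8.62 on the log2 scale, given as a description: it passed the filter on low counts only through the chlorella-1 libraries at 14 d, and the value depends on the prior count because all chlorella-1 libraries at 26 d had 0 counts.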

How the results depend on the processing

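For PCK1 the calls at 26 d, with age in chlorella-1 and in the difference of age changes held under every alternative run, as did both age calls of PPDK. At 14 d MLS was called at 2.28 in a fit of only the groups compared, with an adjusted p of 0.00778, or of 0.0219 with a replicate block. MLS passed the filter on low counts only through the young mutant libraries compared there. That comparison had to show a difference, so its values are given as a description. With limma voom MLS at 26 d was at -3.08 (adjusted p = 0.0684) and its age change in Col turned to -0.14 (adjusted p = 0.936). PCK1 with age in Col was called at -0.62 by voom (adjusted p = 0.0462), at -0.55 in the fit of only the groups compared and at -0.57 with a block in it (adjusted p = 0.0242). Under the replicate block, PPDK in the difference of age changes was 0.77 with an adjusted p of 0.0527. The block changed no other call of the 4 genes in the 12-library fit, and the cause of these changes was not tested. Called genes of the 4, MLS included, numbered for age in Col 2 under voom and in both fits of only the groups compared. At 14 d they numbered 1 in the fits of only the groups compared, and that gene was MLS. With 1 library left out, PPDK at 14 d ranged from -0.15 to 0.16, turning negative without Col replicate 2 or chlorella-1 replicate 3 (-0.02 each time for the last), and MLS at 14 d from 2.06 to 2.67. PPDK at 26 d ranged from 0.71 to 0.89, MLS at 26 d from -6.95 to -5.77, PCK1 with age in Col from -0.66 to -0.46, MLS there from 0.46 to 1.65, and PPDK in the difference from 0.62 to 0.94. In fits of the 26 d libraries alone, MLS was not called without chlorella-1 replicate 1, 2 or 3 (adjusted p from 0.0912 to 0.116). Without Col replicate 1 it was called there, at -6.87 (adjusted p = 0.0217). MLS passed the filter on low counts in these fits only through old Col libraries, so the values are a description. With age in Col alone MLS gained a call without Col at 26 d replicate 1 (adjusted p = 0.0492). MLS passed the filter on low counts there only through the old Col libraries, so that value too is a description. The called genes of the 4 then numbered 0 to 1 at 14 d, 1 to 3 at 26 d and 1 to 3 with age in Col. Over all genes, calls at 14 d numbered 33, but 423 in DESeq2, 11 with the block, 2713 in a fit limited to the 14 d libraries and 2300 with a block in it. With 1 library left out they numbered 5 to 232, and 1518 to 2349 in the limited fit. At 26 d a fit of the 26 d libraries called 9888 genes, against 12921 in the 12-library fit, and without 1 Col library they called 7083 to 7753 and 11880 to 12251. With 1 library left out, the difference of the log2 PPDK to PCK1 ratio ranged from -0.44 to -0.04 at 14 d, -2.10 to -1.57 at 26 d, 1.93 to 2.35 with age in Col and 0.29 to 0.77 with age in chlorella-1. Limma on FPKM was not run, because 3 FPKM columns carry no replicate number, and no ratio of MLS to ICL was formed, because no library had counts of both. Depth limits ICL and MLS.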
